A study of Mus musculus with 4 samples.

Results

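Slc17a7, Slc17a6, Slc17a8, Slc32a1, Gad1 and Gad2 carry the information on which fast transmitter a neuron releases, and they were chosen by symbol as the vesicular transporters for glutamate and GABA and the enzymes of GABA synthesis. They were 6 of the 19465 features of the probe panel, with 1 row each in every section. The counts came from 10x Genomics Visium-FFPE spatial transcriptomics, in which probes to the transcripts are captured on barcoded spots under a tissue section and counted by unique molecular identifier (UMI). The 4 sections were coronal cuts of 1 hemisphere from male wild-type C57BL/6J offspring at postnatal day 21, and each section came from a formalin-fixed, paraffin-embedded block. The mothers of the MF group received an amino-acid-defined diet with 2 mg/kg folic acid, the conventional content, and the mothers of the HF group received the same kind of diet with 20 mg/kg. Both diets ran from before mating through pregnancy and lactation, so the offspring of both groups were exposed through the mother. MF replicate 1, MF replicate 2, HF replicate 1 and HF replicate 2 are the 4 sections, and with 2 sections per diet an exact two-sided permutation test cannot go below p = 0.333.

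Glutamatergic neurons fill their synaptic vesicles through a vesicular glutamate transporter, which uses the proton gradient across the vesicle membrane to concentrate glutamate. In the mature forebrain Slc17a7 (VGLUT1) is the transporter of most cortical and hippocampal pyramidal neurons, Slc17a6 (VGLUT2) that of most thalamic and many hypothalamic neurons, and Slc17a8 (VGLUT3) is found in small, scattered populations, many of which also release another transmitter. GABAergic neurons make GABA from glutamate with glutamate decarboxylase, which Gad1 and Gad2 encode as separate isoforms, and load it through Slc32a1 (VGAT). The striatum and the reticular nucleus of the thalamus consist mainly of GABAergic neurons, whereas the relay nuclei of the rodent thalamus hold few of them.

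All 6 genes were annotated as protein coding in the mm10 genome (GRCm38, GENCODE vM21). Gad1 lies at chr2:70553072-70602014 on the plus strand, Gad2 at chr2:22622205-22693874 on the plus strand and Slc32a1 at chr2:158610767-158615748 on the plus strand, so that the 3 GABA genes share a chromosome. Slc17a7 lies at chr7:45163949-45176142 and Slc17a6 at chr7:51622006-51671119, both on the plus strand, while Slc17a8 lies at chr10:89574020-89621253 on the minus strand. The 250 bases before the RefSeq start (GRCm38.p6) are shown for Slc17a7 and Slc17a6, whose levels were negatively correlated over areas of the sections (Pearson's r = -0.51). Capitals mark CACCTG, an E-box, and GGGCGG, a GC box, found on either strand.
Slc17a7, chr7:45163671-45163920, plus strand: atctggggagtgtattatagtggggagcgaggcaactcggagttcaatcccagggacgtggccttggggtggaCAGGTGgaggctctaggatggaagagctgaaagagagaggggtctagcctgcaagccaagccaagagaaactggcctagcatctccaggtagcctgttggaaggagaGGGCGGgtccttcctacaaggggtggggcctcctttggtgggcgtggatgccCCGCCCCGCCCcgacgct
Slc17a6, chr7:51621580-51621829, plus strand: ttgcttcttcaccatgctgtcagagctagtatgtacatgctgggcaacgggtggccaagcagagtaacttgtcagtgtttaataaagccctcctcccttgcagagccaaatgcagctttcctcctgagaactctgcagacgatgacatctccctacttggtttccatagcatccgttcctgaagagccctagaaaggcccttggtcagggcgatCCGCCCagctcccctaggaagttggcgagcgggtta
The Slc17a7 window had a GC content of 61.2%, with 1 match to CACCTG and 3 matches to GGGCGG, and the Slc17a6 window had 53.2%, with no CACCTG and 1 GGGCGG. Slc17a8 held 2 CACCTG, Slc32a1 held 1, and Gad1 held 1 beside 1 GGGCGG and 1 TATAAA. Gad2 held 1 CATCTG, and none of the 6 windows held CAGCTG or TAATTA. Among 32851 promoter windows of that length, 17.2% held CACCTG, 32.7% GGGCGG, 14.4% CATCTG, 12.4% TATAAA, 13.0% CAGCTG and 4.84% TAATTA, so the matches describe these letters and mark no site of a factor. The windows of Slc17a8, Slc32a1, Gad1 and Gad2 overlapped an annotated exon, and their letters are not printed.

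Of 13470 spots, 13452 had at least 500 UMIs and 250 detected genes and were kept. They held 90096877 UMIs in MF replicate 1 and 34982061 to 42506921 in the other sections, with medians of 9286 to 23544 UMIs per spot. The spots were clustered without the 6 genes into 22 areas, each called by its 3 leading genes, and the areas were joined into 9 regions by marker genes. HF replicate 2 differed from the rest in the tissue it held. It had 235 striatal spots against 144 to 206, 107 spots of the Six3/Pvalb/Trh area against 42 to 49, and 34 habenular spots against 60 to 72. Levels are in CPM, a gene's UMIs scaled to the same total in each sum of a region or area of a section, and they are compared between places for 1 gene at a time, since probes of different genes need not capture equally well. A spot covers several cells, so a lower level cannot be told apart between fewer cells that express a gene and less RNA in each.

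Slc17a7 was highest in the cortex and hippocampus in all 4 sections. In the cortex its level was 3153, 3122, 3076 and 3215 CPM in the order in which the sections are listed above, a mean of 3141 ± 58.3 (SD, n = 4). In the hippocampus it was 2732, 2651, 2776 and 2890 CPM in the same order (2762 ± 99.6), which was below the cortex in every section with no overlap. The habenula (1289 ± 41.3 CPM), white matter, meninges, striatum (1144 ± 99.0) and thalamus (1033 ± 198) came next, with ranges that overlapped between neighbours in that order. The hypothalamus had the lowest mean, at 482, 488, 498 and 502 CPM (493 ± 9.17), so that the cortex lay 6.38-fold above it, a log2 ratio of 2.67 ± 0.04. The choroid plexus, an epithelium without neurons, held 604 ± 168 CPM in 9 to 13 spots per section, with 782, 671, 577 and 386 in the single sections. The hypothalamus was above the choroid plexus in HF replicate 2 and below it in the other 3 sections.

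Slc17a7 also differed between areas of the same region. The Neurod6/Hpca/Homer3 area of the hippocampus held 4986, 5554, 5449 and 5535 CPM (5381 ± 267), above all other areas. The Nxph3/Trbc2/Ccn2 area of the deep cortex held 3506 ± 88.9 CPM, the Lmo3/Lypd1/Ccn3 area 3444 ± 307, the Myl4/Fezf2/Npnt area 3112 ± 83.2 and the Lamp5/Vip/Kcnh5 area 2840 ± 80.2. The Ndnf/Dio2/Reln area at the cortical surface held 2011 CPM, and the C1ql2/Dsp/Igfbpl1 area, which carried dentate gyrus markers, held 1963 ± 51.5. The Agrp/Dlk1/Irs4 area of the hypothalamus was the lowest of the 22 at 389.5 ± 64.3 CPM.

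**Figure D1:**
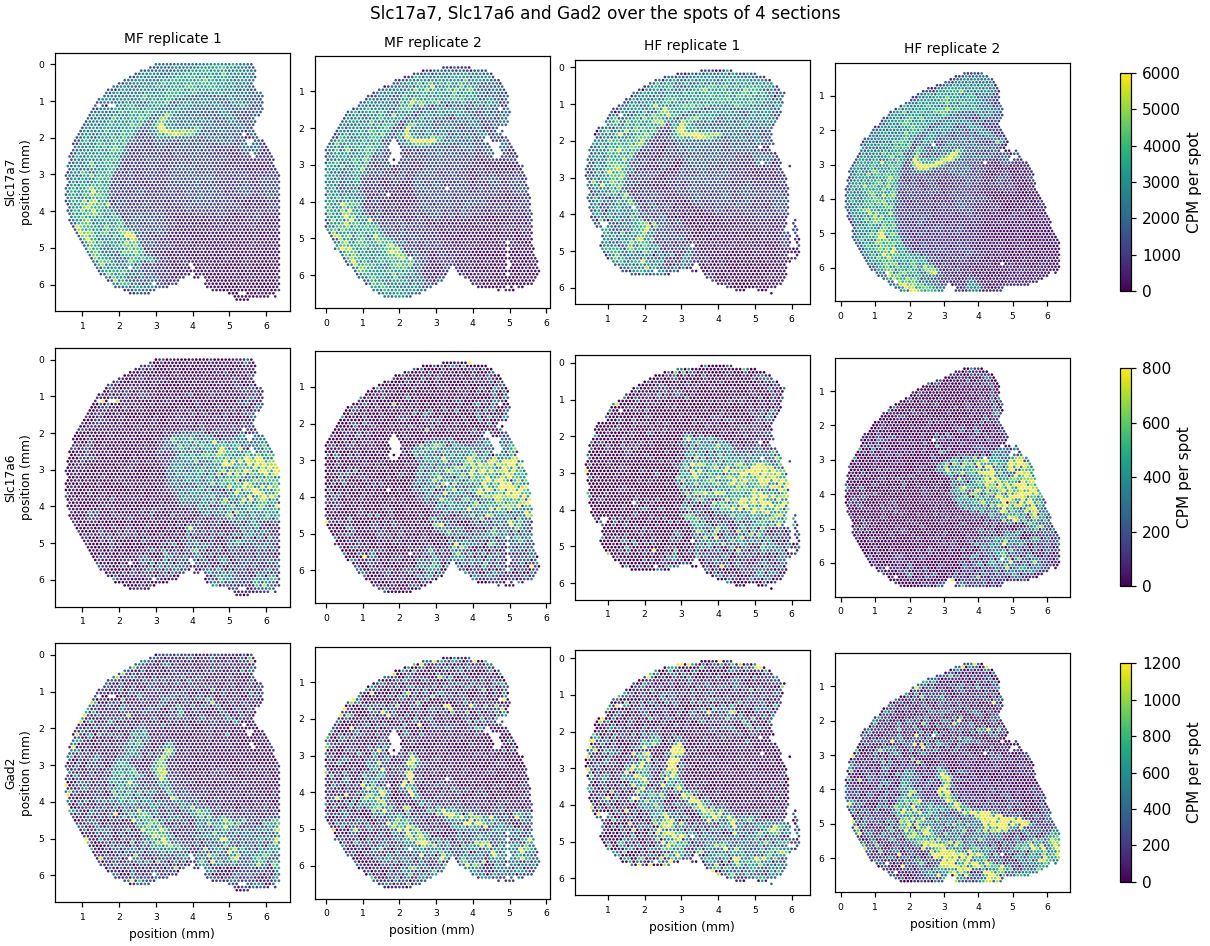
Levels of Slc17a7, Slc17a6 and Gad2 (rows) in each spot of the 4 sections (columns), in CPM of the spot's UMIs, over position in mm. Colour scales end at 6000, 800 and 1200 CPM and higher spots take the top colour. Slc17a7 fills the cortical mantle and a bright hippocampal band, Slc17a6 fills the thalamus and extends into the hypothalamus, and Gad2 marks the striatum, a thin arc beside the thalamus and the hypothalamus.

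Slc17a6 was instead highest in the thalamus, habenula and hypothalamus. In the thalamus it reached 386, 415, 487 and 404 CPM (423 ± 44.2), in the habenula 345, 295, 289.6 and 308 (309 ± 25.1), and in the hypothalamus 175, 215, 201 and 187 (195 ± 17.2). These 3 regions did not overlap, and each was higher than the next in 4 of 4 sections. The meninges followed at 98.1 CPM, and the hippocampus (62.2), cortex (57.7), white matter, choroid plexus (41.1) and striatum (38.9) overlapped with their neighbours in the order. The thalamus lay 7.35-fold above the cortex, a log2 ratio of 2.88 ± 0.25, and the hypothalamus 1.76 ± 0.15 on the log2 scale above the cortex. The ranges of the striatum and the choroid plexus, which should lack the gene, overlapped.

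The thalamus was not uniform for Slc17a6. The Calb2/Gbx2/Tcf7l2 area held 564, 538, 535 and 578 CPM (554 ± 20.9) and the Tcf7l2/Grid2ip/Rgs16 area 472, 530, 521 and 575 (525 ± 42.0), with overlapping ranges. The Prkcd/Tnnt1/Rab37 area, led by a marker of relay nuclei, was lower at 366 ± 34.2 CPM, with no overlap. The Six3/Pvalb/Trh area, which carried the markers of the reticular nucleus, held 73.7, 33.2, 38.7 and 65.0 CPM (52.7 ± 19.7), with a mean below that of the cortex. In the hypothalamus the Pmch/Hcrt/Dlk1 area held 219 CPM and the Agrp/Dlk1/Irs4 area 178, with overlapping ranges.

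Slc17a8 was counted with 623, 217, 225 and 283 UMIs in whole sections, or 6.91, 5.12, 6.43 and 6.66 CPM. Its regional means ran from 4.24 CPM in white matter to 12.0 in the choroid plexus, where it rested on 2 to 8 UMIs per section, and the ranges of all neighbours in the order overlapped. Among areas the Tcf7l2/Grid2ip/Rgs16 area of the thalamus had the highest mean, 14.8, 13.2, 14.2 and 11.6 CPM (13.5 ± 1.36). The striatum held 10.3 ± 2.58 CPM and the Lamp5/Vip/Kcnh5 area of the cortex 1.71. After thinning to equal depth, 2.75% to 3.29% of the spots of a whole section had a UMI of Slc17a8, and its differences between regions were not tested.

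By mean over the 9 regions, the genes of GABA synthesis and loading were highest in the striatum and hypothalamus. Gad2 held 567, 616, 604 and 771 CPM in the striatum (639.5 ± 90.1), 446, 489, 544 and 575 in the hypothalamus (514 ± 57.5) and 213, 217, 215 and 220 in the cortex (216 ± 2.82). The striatal and hypothalamic ranges overlapped, although the striatum was higher in 4 of 4 sections, and both lay above the cortex. In the thalamus Gad2 was 198, 163, 135 and 318 CPM, and HF replicate 2, with its larger Six3/Pvalb/Trh area, was the highest. The hippocampus (182 ± 9.50 CPM), the habenula (101 ± 31.6) and the choroid plexus (73.3 ± 39.5) were at the lower end.

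The Six3/Pvalb/Trh area stood above all regions for all 3 GABA genes. Gad2 reached 837, 864, 1114 and 1017 CPM there (958 ± 131), Gad1 293, 278, 351 and 273 (299 ± 35.9) and Slc32a1 105, 143, 207 and 139 (149 ± 42.6).

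Slc32a1 held 91.6, 75.1, 70.7 and 84.3 CPM in the striatum (80.4 ± 9.35) and 68.9, 68.6, 85.4 and 67.4 in the hypothalamus (72.6 ± 8.56), and these regions overlapped. Gad1 held 79.4, 75.1, 63.4 and 96.5 CPM in the striatum (78.6 ± 13.8) and 55.8, 40.0, 47.4 and 72.4 in the hypothalamus (53.9). With coarser clusters (Leiden resolution 0.5), Gad1 was at 48.7, 31.8, 24.6 and 77.9 CPM in the thalamus. The hypothalamus was then at 56.1, 39.6, 47.5 and 73.9, so for Gad1 these regions overlapped. The striatum lay above the cortex 2.94-fold for Gad2 (log2 ratio 1.55 ± 0.18), 2.54-fold for Slc32a1 (1.34 ± 0.27) and 1.99-fold for Gad1 (0.99 ± 0.18). The hypothalamus lay above the cortex by 1.24 for Gad2 and 1.19 for Slc32a1 on the log2 scale, and by only 0.43 ± 0.18 for Gad1.

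**Figure D2:**
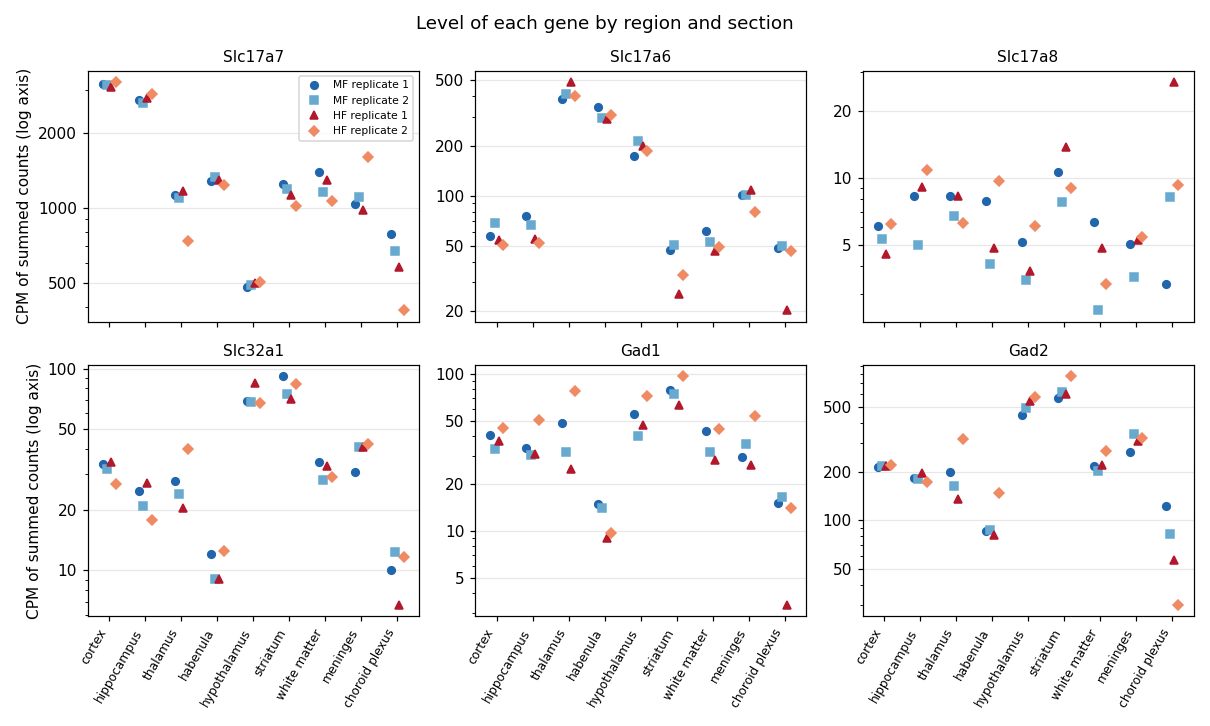
Level of each of the 6 genes in CPM (log axis, with a separate scale for each gene) in 9 regions, 1 point per section. By mean, Slc17a7 is highest in the cortex and hippocampus, and Slc17a6 in the thalamus and habenula. Gad2, Slc32a1 and Gad1 are highest by mean in the striatum and hypothalamus. The points of Slc17a8 overlap between regions that are neighbours in the order of means.

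Set against each other, the transporters and the isoforms of glutamate decarboxylase changed balance over the section. Slc17a6 made up 25.5%, 27.4%, 29.4% and 35.4% of the UMIs of Slc17a6 and Slc17a7 in the thalamus and 28.3% ± 1.8 in the hypothalamus, but 1.8% in the cortex and 2.2% in the hippocampus. Hypothalamic Slc17a7 was below its choroid plexus level in all sections except HF replicate 2. The hypothalamic share thus rests on Slc17a7 counts near those of tissue that should lack the gene, and was not corrected for them. In the Tcf7l2/Grid2ip/Rgs16 area the share was 33.4%, 38.2%, 41.8% and 50.7%, and in the Neurod6/Hpca/Homer3 area its mean was 0.45%. Slc17a7 thus remained the gene with more UMIs of the pair in the thalamus, as probes for the 2 genes counted them.

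Gad1 made up 26.0%, 24.3%, 24.0% and 21.2% of the UMIs of Gad1 and Gad2 in the Six3/Pvalb/Trh area (23.9% ± 2.0), 15.3% in the cortex, 10.9% ± 1.1 in the striatum and 9.5% ± 2.0 in the hypothalamus. The ranges of the Six3/Pvalb/Trh area and the striatum did not overlap. In the C1ql2/Dsp/Igfbpl1 area the share of Gad1 spread from 15.0% to 27.2% over the sections. The balance of Slc32a1 and Gad2 moved less, since Slc32a1 made up 9.1% to 15.8% of the UMIs of that pair in the means of all regions and areas.

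**Figure D3:**
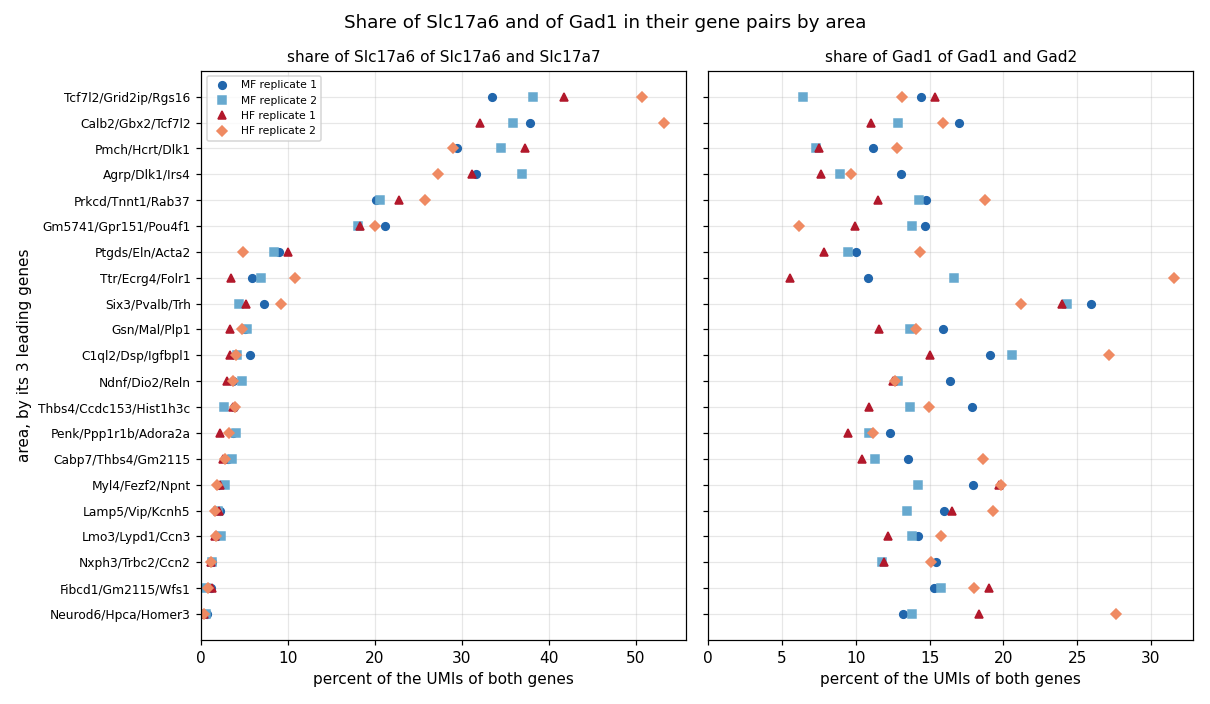
Share of Slc17a6 of the UMIs of Slc17a6 and Slc17a7 (left) and share of Gad1 of the UMIs of Gad1 and Gad2 (right), in percent, for 21 areas and 4 sections. Areas are ordered by the share of Slc17a6. Thalamic and hypothalamic areas lie far above cortical and hippocampal ones on the left, and the Six3/Pvalb/Trh area is at 21.2% to 26.0% on the right.

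Single spots were compared after every spot was thinned to 5000 UMIs, which left out 742 of 13452 spots, 510 of them in HF replicate 1. Slc17a7 had a UMI in 100% of cortical spots, in 84.8% to 89.1% of hypothalamic spots and in 76.9% to 100% of choroid plexus spots, which should lack it. Slc17a6 had a UMI in 76.6% to 86.0% of thalamic, 54.9% to 64.8% of hypothalamic, 21.8% to 28.3% of cortical and 7.7% to 11.1% of choroid plexus spots. Gad2 was counted in 92.2% to 95.7% of striatal and 57.7% to 59.0% of cortical spots, against 15.4% to 66.7% of the few choroid plexus spots. For Slc17a7 the hypothalamic share lay below that of the choroid plexus in MF replicate 1, MF replicate 2 and HF replicate 1 and above it in HF replicate 2 (89.1% against 76.9%), and the choroid plexus shares rest on 9 to 13 spots. UMIs of both Slc17a7 and Slc17a6 were present in 69.6% to 85.5% of thalamic spots, which does not place them in the same cell.

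Over single spots of a section, Pearson's r was 0.16 to 0.26 between Gad1 and Gad2 and between Slc32a1 and Gad2, and -0.38 to -0.26 between Slc17a7 and Slc17a6. Over the 88 sums of an area in a section, r of log2(CPM + 1) was 0.94 for Slc32a1 with Gad2, 0.85 for Gad1 with Gad2 and -0.51 for Slc17a7 with Slc17a6. The points share sections and depth, so these are descriptions. Of 10321 features with a mean of at least 10 CPM, those most like Gad2 over the 88 sums were Slc32a1, Gad1 (0.85) and Dlx6 (0.83), a homeobox gene of GABAergic neurons. Those most like Slc32a1 were Gad2, Dlx6 (0.84) and Gad1 (0.83), and those most like Gad1 were Ubash3b (0.85), Gad2 and Slc32a1. For Slc17a7 they were Rtn4rl2 (0.90), a Nogo receptor homologue, Pik3r2 (0.90) and Chn1 (0.89), and for Slc17a6 Rims3 (0.90), Calb2 (0.90), which encodes calretinin, and Ntng1 (0.88). The closest features to Slc17a8 reached only 0.49 (Clybl), 0.47 (Edf1) and 0.43 (Maob).

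The deposited scores of Moran's I, which measure how far neighbouring spots resemble each other in a gene, placed Slc17a7 first among 18235, 17196 and 18100 features in MF replicate 1, MF replicate 2 and HF replicate 2 and at rank 2 of 16731 in HF replicate 1, with scores of 0.845, 0.789, 0.788 and 0.742. Slc17a6 had scores of 0.590, 0.553, 0.615 and 0.602 and ranks of 62, 42, 17 and 23 in the order of the sections given above. Gad2 ranked between 115 and 353. Slc32a1 and Gad1 had scores of 0.100 to 0.172 at ranks from 826 to 1862, and Slc17a8 scores of 0.056 to 0.088 at ranks from 2832 to 2905, the least structured of the 6.

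The second question was whether the maternal diet changed these genes in the offspring. Summed counts of HF and MF sections were compared by edgeR's quasi-likelihood test over all features, and a call needed an adjusted p (Benjamini-Hochberg) under 0.05 together with a change of at least 1.2-fold. In whole sections 0 of the 6 genes were called, where 0% of all 14971 features tested were called, and 0 of 6 had an unadjusted p under 0.05, against 6.81% of all features. DESeq2 also called 0 of the 6 and gave 0 of them an unadjusted p under 0.05, and it called 22 features in all. Gad2 was at 252, 261, 257 and 329.6 CPM (log2 fold change 0.19, SE 0.13) and Gad1 at 44.8, 34.9, 33.4 and 59.4 (0.21, SE 0.27), with HF replicate 2 the highest for both and the groups overlapping. Slc17a7 was at 1911, 1758, 1711 and 1801 CPM (-0.07, SE 0.07) and Slc17a6 at 159, 185, 219 and 151 (0.10, SE 0.17). Slc32a1, at 38.2, 36.1, 38.9 and 38.8 CPM (0.06, SE 0.08), was the 1 of 6 genes whose groups did not overlap, against 39.6% of all features.

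The direction of Gad2, Gad1 and Slc17a6 in whole sections depended on single sections. Without HF replicate 2 the log2 fold change of Gad2 was -0.02 and that of Gad1 -0.29, and without HF replicate 1 both genes were called, at 0.37 and 0.57 with edgeR adjusted p-values of 0.003 and 0.007. Slc17a6 was called at 0.33 without HF replicate 2 (edgeR adjusted p = 0.024) and was at -0.18 without HF replicate 1. The tissue that HF replicate 2 held in excess, striatum and the Six3/Pvalb/Trh area, was the tissue richest in Gad1 and Gad2. Within regions, as means of single spots, HF replicate 2 was also highest for Gad1 in the hippocampus (57.0 against 31.3 to 37.1 CPM) and cortex (46.8 against 34.6 to 43.5). The same held in the hypothalamus (74.4 against 39.1 to 54.5), thalamus (65.3 against 33.2 to 40.5) and striatum (99.9 against 61.0 to 78.7). It held as well in the meninges and choroid plexus. HF replicate 2 was not highest for Gad1 in white matter (45.2 against 28.7 to 45.4) or the habenula (9.38 against 9.92 to 15.5). For Gad2 it was highest in the thalamus, hypothalamus, striatum, white matter and habenula. It was not highest for Gad2 in the hippocampus (213 against 200 to 230), cortex, meninges or choroid plexus. The part of the difference in tissue in these values was not tested.

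By region, 0 of 36 tests of the 6 genes were called in the cortex, hippocampus, thalamus, hypothalamus, striatum and white matter, where 0.0515%, 0%, 0%, 0%, 0.0605% and 0.0479% of all features were called by edgeR's test, or 0.026% over the 6 regions together. An unadjusted p under 0.05 was found in 4 of the 36 tests, or 11.1%, against 6.65% of all tests over features, and in 3 by DESeq2, which called 0. Groups did not overlap in 10 of 36, or 27.8%, against 36.8% of all features. The lowest edgeR adjusted p among the 36 was 0.347. By the counts of non-overlapping groups, the 6 genes did not stand above the other features. Their share with an unadjusted p under 0.05 was above that of all features, on 4 tests.

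Slc17a6 accounted for 3 of those 4 tests. It was lower in the HF sections in 5 of 6 regions, all except the thalamus. In 4 of them the groups did not overlap, against 36.8% of all features over the 6 regions together. The hypothalamus, with the second-highest level of the 6, had overlapping groups. As means of single spots Slc17a6 was there at 177 and 219 CPM with MF against 195 and 187 with HF. In the hippocampus it was at 75.9 and 66.4 CPM in the MF sections against 54.5 and 52.0 in the HF sections, a log2 fold change of -0.42 (SE 0.11, edgeR unadjusted p = 0.004, adjusted p = 0.347). In the striatum it was at 46.7 and 50.1 CPM against 25.3 and 33.4 (-0.63, SE 0.19, edgeR adjusted p = 0.464), on 24 UMIs in HF replicate 1. In the cortex it was at 57.5 and 68.2 CPM against 54.4 and 50.5 (-0.25, SE 0.10, edgeR adjusted p = 0.629). In these 3 regions Slc17a6 was far below its thalamic level, and its striatal range overlapped that of the choroid plexus, which should lack the gene. The thalamus, where the gene was highest, gave 386 and 415 CPM against 487 and 404 (0.14, SE 0.12). The hippocampal value was the one called without HF replicate 1, at -0.45 with an edgeR adjusted p of 0.016.

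Gad2 was higher in the HF sections in 6 of 6 regions, by 0.02 to 0.32 on the log2 scale, with an unadjusted p under 0.05 only in the hypothalamus. There it was at 446 and 489 CPM with MF and at 544 and 575 with HF, so that the groups did not overlap, with a log2 fold change of 0.24 (SE 0.10, edgeR adjusted p = 0.711). Without HF replicate 1 it was called at 0.29 (edgeR adjusted p = 0.041). In the thalamus the difference of 0.32 became -0.13 (SE 0.13, edgeR adjusted p = 0.860) when the spots of the Six3/Pvalb/Trh area were left out, a choice made after the data were seen, and that of Slc32a1 went from 0.20 to -0.43 (SE 0.15, edgeR adjusted p = 0.652). With those spots Gad2 was called upward without HF replicate 1 (0.80) and downward without HF replicate 2 (-0.43). Gad1 and Slc32a1 gave no test under 0.05 in a region, and their groups overlapped in all 6. They too depended on single sections. Without HF replicate 1 the log2 fold change of Gad1 was 0.67 in the hippocampus, 0.89 in the thalamus and 0.56 in the hypothalamus. That of Slc32a1 was then 0.60 in the thalamus.

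**Figure D4:**
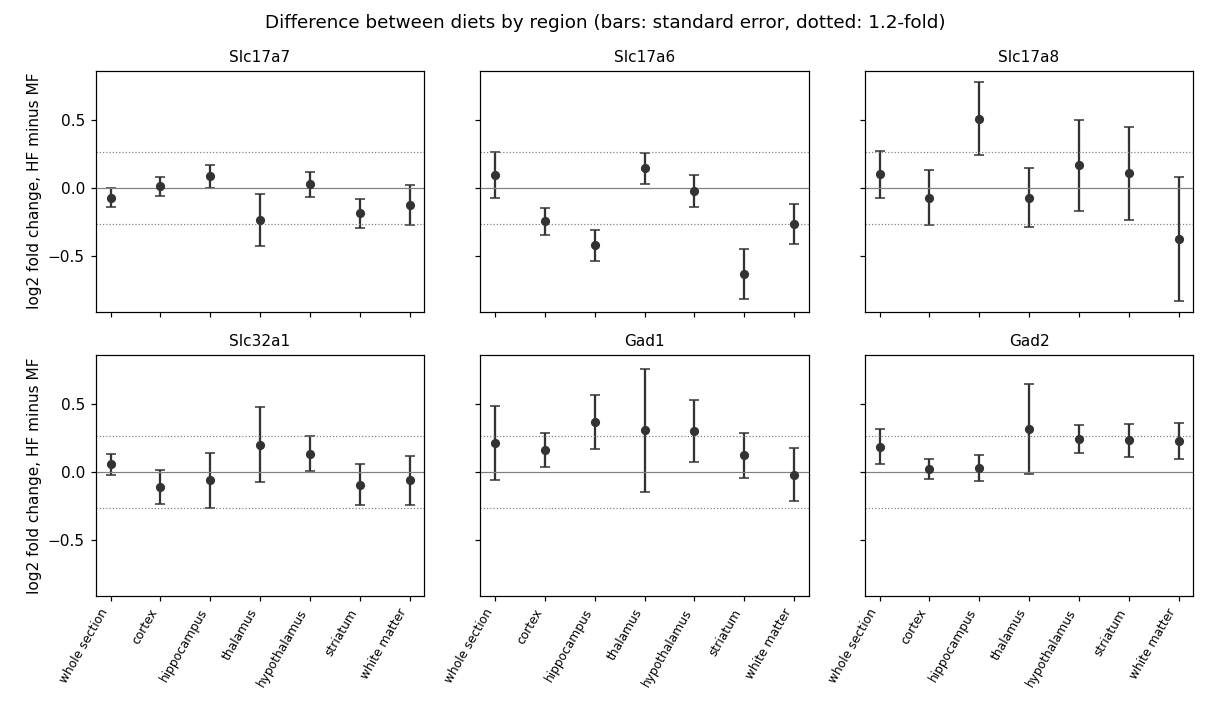
Log2 fold change, HF minus MF, of each of the 6 genes in whole sections and 6 regions, with its standard error as a bar. Dotted lines stand at 1.2-fold. Slc17a6 lies below 0 in 5 of 6 regions and Gad2 above 0 in 6 of 6, and no point passed the adjusted threshold. The groups of Slc17a6 overlapped in the thalamus and hypothalamus, where it was highest of these regions.

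By area, 0 of 117 tests of the 6 genes were called in 21 areas, against 0.0639% of all tests over features, and the lowest edgeR adjusted p was 0.138. DESeq2 called 0. The unadjusted p was under 0.05 in 15 of the 117 tests, or 12.8%, against 5.93% of all tests over features, and in 8 by DESeq2. Groups did not overlap in 35 of 117, or 29.9%, against 34.9% of all features. Slc17a8 passed the filter on low counts in 12 of the 21 areas and the other genes in all 21. The striatum is a single area, so its values count in both sets.

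In the Agrp/Dlk1/Irs4 area, led by the agouti-related peptide gene of the arcuate nucleus, Gad2 was at 369 and 443 CPM in the MF sections against 513 and 579 in the HF sections (0.44, SE 0.14, edgeR adjusted p = 0.423). Slc32a1 there was at 53.9 and 48.7 against 79.6 and 61.1 CPM (0.47, SE 0.17, edgeR adjusted p = 0.488). Slc17a7 moved the same way, with 357 and 320 against 414 and 467 CPM (0.39, SE 0.12, edgeR adjusted p = 0.423), at levels below the choroid plexus mean of 604 CPM. The groups did not overlap for any of the 3 genes, as for 40.4% of all features in this area.

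Elsewhere the tests under 0.05 ran in both directions. In the Tcf7l2/Grid2ip/Rgs16 area of the thalamus Slc17a7 was at 941 and 857 CPM against 727 and 560 (-0.54, SE 0.14, edgeR unadjusted p = 0.001, adjusted p = 0.138), the lowest adjusted p among the areas. It was called without HF replicate 1, at -0.70, and that section had 27 spots of this area against 146 to 235 in the others. In the Neurod6/Hpca/Homer3 area Gad2 was at 116 and 150 CPM against 74.4 and 84.6 (-0.64, SE 0.18, edgeR adjusted p = 0.280) and Slc17a6 at 34.8 and 27.7 against 14.9 and 18.9 (-0.89, SE 0.34, edgeR adjusted p = 0.659), the latter on 8 to 59 UMIs. These Slc17a6 values all lay below the choroid plexus mean of that gene. In the C1ql2/Dsp/Igfbpl1 area Gad2 was higher (0.33, SE 0.14) and Slc17a6 lower (-0.50, SE 0.17) in the HF sections, and in the Six3/Pvalb/Trh area Gad2 (0.31, SE 0.15) and Slc32a1 (0.41, SE 0.19) were higher and Slc17a7 (-0.34, SE 0.15) lower. Over all areas Gad2 was higher in 15 of 21 and Slc17a6 lower in 15 of 21, directions that were not tested as a set.

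**Figure D5:**
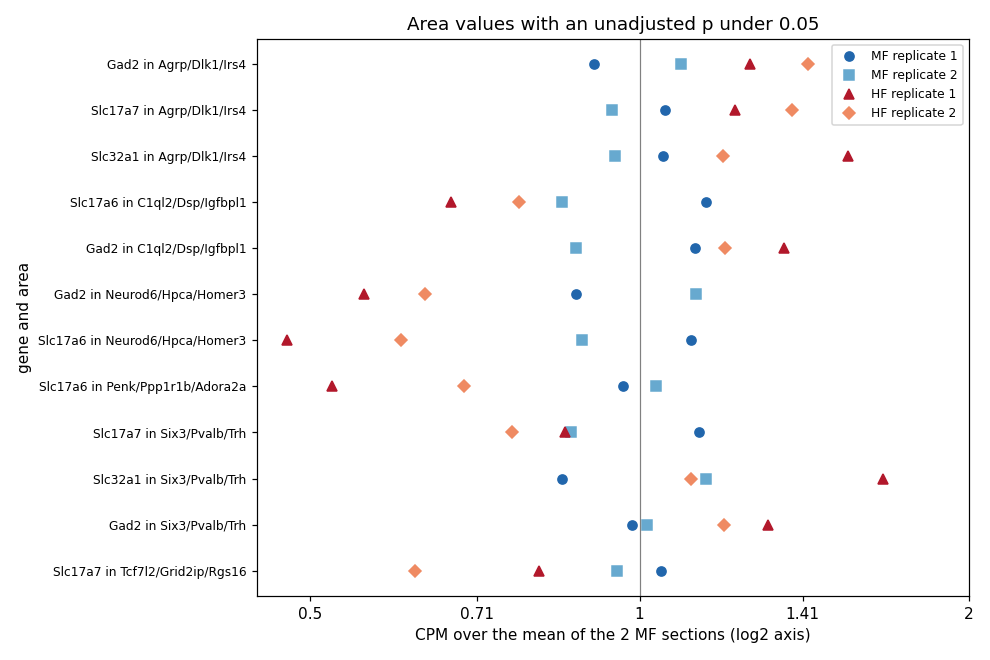
The 12 described area values with an unadjusted p under 0.05, as CPM of each section over the mean of the 2 MF sections (log2 axis). The points show 11 pairs of groups that do not overlap, and Slc32a1 in the Six3/Pvalb/Trh area, where HF replicate 2 lies below MF replicate 2. The values were picked by p, which favours separated groups, so this count is no added evidence. Over all area tests of the 6 genes, groups did not overlap in 29.9%, against 34.9% of all features.

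A model over all regions asked whether the diet difference itself varied between them. It called 0 of the 6 genes, against 0.0143% of 14030 features, which is 2 features, with 811 features at an unadjusted p under 0.05. Slc17a6 had the lowest p of the 6 (edgeR unadjusted p = 0.001, adjusted p = 0.544), with region values that spanned 0.76 on the log2 scale. Without HF replicate 1 the model called Gad1, Gad2, Slc32a1 and Slc17a7, and without HF replicate 2 none of the 6. The variation of the Slc17a6 difference between regions was therefore not past the threshold.

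The genes around these steps were followed in 6 lists, in which edgeR's test called 0 genes over whole sections. Of the enzymes and carriers that supply glutamate, 11 of 12 were tested and 5 were higher in HF, with a median log2 fold change of -0.03 against 0.002 over all features. Slc25a18, a mitochondrial glutamate carrier, had the largest value (0.28, SE 0.12) and Slc38a2, an amino acid transporter of the plasma membrane, the smallest (-0.18, SE 0.08). Of 8 genes of GABA breakdown, its cofactor and GABA uptake, 5 were higher, from Abat, the GABA transaminase (0.12, SE 0.08), to Pdxk, the pyridoxal kinase (-0.08, SE 0.07). Of the vesicular proton pump, which drives all these transporters, 14 of 15 subunits were tested, with 5 higher and a median of -0.02. Among 9 other vesicular transporters and vesicle proteins 2 were higher, with a median of -0.16. Slc18a3, the acetylcholine transporter, was at 0.66 (SE 0.30) and Slc17a9, a nucleotide transporter, at -0.77 (SE 0.26).

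Of 10 transcription factors of glutamatergic neurons 8 were higher in HF over whole sections, with a median of 0.20 and 3 at an unadjusted p under 0.05, against 6.81% of all features. Neurod6 had the largest value (0.38, SE 0.13). The lists were not recomputed without single sections. The smallest was that of Emx1 (-0.05, SE 0.09). Of 13 transcription factors of GABAergic neurons 10 were higher, with a median of 0.12, from Six3 (0.70, SE 0.36), which leads the area that HF replicate 2 held in excess, to Gata3 (-0.26, SE 0.66). In the hypothalamus 10 of 12 of them were higher, with a median of 0.33 and 4 at an unadjusted p under 0.05, against 6.80% of all features in that region, and again 0 were called.

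Levels of other cells moved with the diet groups in part. The summed level of 6 choroid plexus genes over whole sections was 2437 and 2294 CPM with MF against 3415 and 3782 with HF, a ratio of 1.52. These groups did not overlap, as for 39.6% of single features. By region this ratio ran from 0.90 in the hippocampus to 1.31 in white matter. The astrocyte and microglia lists had ratios of 0.97 and 0.98 over whole sections. The summed level of 10 oligodendrocyte genes over whole sections was 26014 and 27158 CPM with MF against 21569 and 23155 with HF, a ratio of 0.84. By region the ratio was 0.70 in the hippocampus, 0.82 in the cortex, 0.90 in the striatum, 0.96 in the hypothalamus and 0.98 in white matter. It was 0.86 in the thalamus, the only one of these regions where Slc17a6 was higher. The 7 measured endothelial genes had a ratio of 1.19 in the hypothalamus and of 0.88 to 1.07 in the other regions. The 9 pan-neuronal genes were at 9396 and 9197 CPM against 9406 and 8978 over whole sections and had ratios of 0.99 in the hippocampus and 1.02 in the hypothalamus. The part of these shifts in the values of the 6 genes was not tested.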

How the data were processed

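Sequence counts came from Visium-FFPE sections of 4 offspring brains. Per the labels and file headers, the authors made the deposited counts with Space Ranger 2.0.0 against mm10 (Seurat is also named), and the deposited Moran's I scores come with them. The counts are raw UMIs per feature and spot, with no normalization, and spots under 500 UMIs or 250 genes were left out here (18 of 13470). The rest held 210008856 UMIs. Whether the sections came from separate litters is not given in the sources used here, so p-values measure the spread between these sections.

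Spots were clustered over 2000 variable features without the 6 genes (30 principal components, 20 neighbours, Leiden resolution 1, leidenalg 0.10.2). Clusters were called by leading genes (fold over all other spots, 10 CPM added) and placed in a region by at least 3 markers among their first 50. Spots are not replicates. Counts were therefore summed per section and tested with edgeR 4.0.16 (quasi-likelihood, TMM, default filter on low counts, R 4.3.3), with at least 10 spots per section, and DESeq2 1.42.0 was an alternative. The tests were checked on simulated counts. Python 3.11.15 did the rest. The other alternatives were library size alone, no filter on low counts, the replicate block, thinning to 5000 UMIs, interior spots, resolution 0.5, the mean of single spots, and each section left out. The genes named are the 6 members, the 3 features most like each, leading genes of areas and the extremes of each pathway list. Members and lists were chosen with earlier results of these data known. Samples sharing a replicate number did not deviate together (r = -0.17 to 0.03), so the main tests did not pair sections by number. That correlation of differences within groups cannot exclude a batch shared by sections of the same number. No doublet filter applies to spots. The values of 1 area and its share in the area tests are not reported here, while the counts over all areas include it.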

Additional observations from a re-analysis of the deposited data

How the results depend on the processing

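No section could be left out without consequence for the diet comparison. The count of calls among the 6 genes ranged from 0 to 2 in whole sections, from 0 to 9 by region, from 0 to 11 by area and from 0 to 4 in the region model when each section was left out, with 0 in all 4 comparisons without MF replicate 1 or MF replicate 2. Without HF replicate 1 the calls were 2, 9, 11 and 4 (1166, 2919, 4819 and 307 among all features), and without HF replicate 2 they were 1, 1, 6 and 0 (840, 1322, 2375 and 20). A lone section is then assumed to vary like the other group. The log2 fold change in whole sections ranged from -0.018 to 0.37 for Gad2, -0.29 to 0.57 for Gad1, -0.18 to 0.33 for Slc17a6 and -0.090 to 0.35 for Slc17a8, and Slc17a8 was at -0.0086 after thinning to 5000 UMIs. The cause was not tested.

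With the replicate number as a block, 0 of the 6 genes were called in whole sections and regions and 1 by area, Gad2 in the Neurod6/Hpca/Homer3 area (-0.73, edgeR adjusted p = 0.047), with 378 features by area against 150 without it. A crossed pairing, chosen after the data were seen, called 0 of the 6 and 11 features in whole sections. The region model called 2 of the 6, Slc17a7 and Slc17a6, and 239 features with no filter on low counts. In whole sections DESeq2 called 22 features and no filter 5, against 0. The fold between places moved by more than its SD for Slc17a7, cortex over hypothalamus (log2 2.60 thinned, 2.95 in interior spots, 2.52 as a mean of single spots, against 2.67), Slc17a6, hypothalamus over cortex (1.94 in interior spots against 1.76) and Gad2, striatum over cortex (1.78 in interior spots against 1.55). The choroid plexus had no interior spots and the meninges had them in 2 sections. In 85 comparisons of main results with another setting, the count of calls stayed similar or the fold between places stayed within its SD, and in 14 it moved. Direction and side of the threshold were kept in 180 comparisons of single genes, while the direction turned in 6 and a gene became called in 13. Depth limits Slc17a8 most.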
